A study of Mus musculus with 6 samples.

Results

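The mitochondrial ribosomal RNAs are the 12S RNA, encoded by mt-Rnr1, and the 16S RNA, encoded by mt-Rnr2. Both were taken by gene symbol from a table of 54590 Ensembl gene IDs, so there are 2 members, and both were detected in every library. They were measured in total RNA of hippocampal microglia, the resident macrophages of the brain, from mice at 3 weeks after birth. One group is labelled Ctrl (3 libraries) and the other FGR (3 libraries), which the series title links to growth restriction in the womb. How growth was restricted, how the cells were isolated and whether replicate libraries stem from different animals are not given, so the p-values speak only of a spread that may be technical. All mice, Ctrl and FGR alike, were heterozygous for Tmem119-tdTomato, a red reporter tied to a gene typical of microglia, and 3000 cells gave the RNA for each library.

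The mitochondrial genome encodes its own ribosomal RNAs, while the proteins of the mitochondrial ribosome are encoded in the nucleus and imported. The 12S RNA is the core of the small subunit, which reads the messenger RNA, and the 16S RNA is the core of the large subunit, which joins amino acids. Both are copied from the heavy strand as part of 1 long precursor, together with the tRNAs around them and the mRNAs that follow. The tRNAs mark where the precursor is cut, and the ribosomal RNAs are known to be far more abundant than the mRNAs. A protein, mitochondrial transcription termination factor 1, is known to bind within the tRNA gene just after the 16S gene.

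On GRCm38 (mm10) the 12S gene lies at chrM:70-1024 (955 bases) and the 16S gene at chrM:1094-2675 (1582 bases). Each is a single exon without introns or untranslated regions. The tRNA gene mt-Tv (for valine, chrM:1025-1093) fills the gap between them exactly, and mt-Tl1 (for leucine, chrM:2676-2750) separates the 16S gene from mt-Nd1, the first mRNA. These sequences are shown because the ribosomal RNAs are set free by cutting at these junctions. They are the plus strand of chrM:995-1123 and chrM:2646-2780 from the GENCODE M21 transcripts, with the tRNA in capitals and 30 bases of the neighbours in lower case.
12S, mt-Tv and 16S: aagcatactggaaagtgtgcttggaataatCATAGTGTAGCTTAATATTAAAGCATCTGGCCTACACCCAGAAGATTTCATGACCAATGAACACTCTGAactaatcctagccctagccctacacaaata
16S, mt-Tl1 and mt-Nd1: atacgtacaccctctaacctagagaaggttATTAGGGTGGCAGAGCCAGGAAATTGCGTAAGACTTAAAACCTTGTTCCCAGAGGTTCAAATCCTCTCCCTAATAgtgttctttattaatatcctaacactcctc
The 2 ribosomal RNAs are alike in base composition, with 35.8% G and C in the 12S and 35.4% in the 16S. Adenine makes up 37.8% and 38.2% of their bases.

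Counts summed to between 1553588 and 11364316 per library. Within Ctrl and within FGR, libraries 1 and 2 were close to copies. Their chi-square, taken over features with at least 1000 and under 10000 counts in the pair, was 2.63 per feature in Ctrl and 2.77 in FGR, against 20.4 to 51.7 for the 13 other pairs of libraries. Each pair was therefore treated as 1 sample, which leaves 2 samples per group: libraries 1 and 2 together, and library 3. For the members themselves the near copies differed by 0.06 (12S) and 0.03 (16S) on the log2 scale in Ctrl, and by 0.09 and 0.06 in FGR. The microglial identity of the RNA could be read only in part from the table. Of 18 microglial markers, none was at 0 over all libraries, but the complement genes C1qa, C1qb and C1qc had 3, 14 and 13 counts and Tmem119 had 29. The transcription factor Sall1 had 4292 counts and Aif1 had 2166. The summed microglial markers ranged from 370 to 390 CPM (counts per 1000000 counts of the library) in Ctrl and from 330 to 376 in FGR, and the summed neuronal markers from 1250 to 1421 and from 1200 to 1370. For the erythroid markers these sums were 0.196 to 2.02 and 0.176 to 2.24 CPM. The neuronal sum rested mostly on Gad2 and Slc17a7, named here after their values were seen. They held 21921 and 13888 of the 41107 counts of the 10 neuronal markers. Of 8 marker lists of microglia and other cell types (59 genes, 0 of them at 0 counts), none had sums that separated the groups, on library totals or with the TMM scaling (edgeR's scaling between libraries) of the fit.

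The 16S RNA was higher in FGR than in Ctrl in every library, by a margin that did not pass the test over all features. The strand setting of the counting is not given, so whether counts of either ribosomal RNA hold opposite-strand reads could not be checked. In CPM divided by the length of the gene in kb, the 16S RNA stood at 56981, 58372 and 59579 in Ctrl libraries 1, 2 and 3. In FGR libraries 1, 2 and 3 it stood at 66111, 68868 and 66828. The groups did not overlap, and the lowest FGR library lay above the highest Ctrl library. With the near copies averaged, the level was 58628 ± 1345 in Ctrl and 67159 ± 468 in FGR (SD, n = 2). FGR was 1.17 times Ctrl in libraries 1 and 2, and 1.12 times Ctrl in library 3; with TMM scaling mt-Rnr2 was at 1.34 and 1.13 times Ctrl. In edgeR's quasi-likelihood fit on the 4 samples mt-Rnr2 had a log2 fold change of 0.28 (SE 0.28), with a Benjamini-Hochberg adjusted p of 0.9998 over 24149 features. No feature of the table passed that test (0% called), with 327 at an unadjusted p under 0.05; DESeq2 and limma-voom on the same samples also called 0. Of the tested features, 2.75% had all 3 FGR libraries above all 3 Ctrl libraries on library totals. Among features averaging 100 CPM or more this share was 5.82%. With the TMM scaling of the fit it was 4.68% of all tested features, and the 16S RNA was among them on both scales. In bulk RNA, fewer cells of a type and less RNA per cell cannot be told apart. Within each replicate number the FGR library was also the deeper one, at 3358142 against 2972721, 1783494 against 1553588 and 11364316 against 10201412 counts, and the part of depth in the difference was not tested.

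The 12S RNA overlapped between the groups, and its direction in libraries 1 and 2 turned with the scaling. On library totals its level was 45725, 47669 and 46284 CPM per kb in Ctrl libraries 1, 2 and 3. In FGR libraries 1, 2 and 3 it was 43433, 46109 and 56469. Library 3 of FGR stood above all others, while FGR libraries 1 and 2 lay within or below the range of Ctrl. The mean was 46490 ± 292 in Ctrl and 50620 ± 8272 in FGR (SD, n = 2). On library totals the FGR level was 0.959 times Ctrl in libraries 1 and 2 and 1.22 times Ctrl in library 3, an order of signs shared by 29.4% of tested features. With TMM scaling mt-Rnr1 stood at 40770, 42502 and 48330 CPM per kb in Ctrl and at 44224, 46949 and 59567 in FGR. FGR was then 1.09 times Ctrl in libraries 1 and 2 and 1.23 times Ctrl in library 3, so that both ribosomal RNAs were above Ctrl in both sets, as were 23.6% of tested features on that scale. In the edgeR fit the log2 fold change of mt-Rnr1 was 0.22 (SE 0.28, adjusted p 0.9998). Without FGR library 3 it was 0.01 (SE 0.53), a fit in which the near copies stand alone for FGR, as 1 sample assumed to vary like Ctrl. The corresponding value of mt-Rnr2 was 0.27 (SE 0.52). Without Ctrl library 3 the values were 0.38 for mt-Rnr1 and 0.48 for mt-Rnr2, with adjusted p of 0.5521 and 0.4838.

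**Figure D1:**
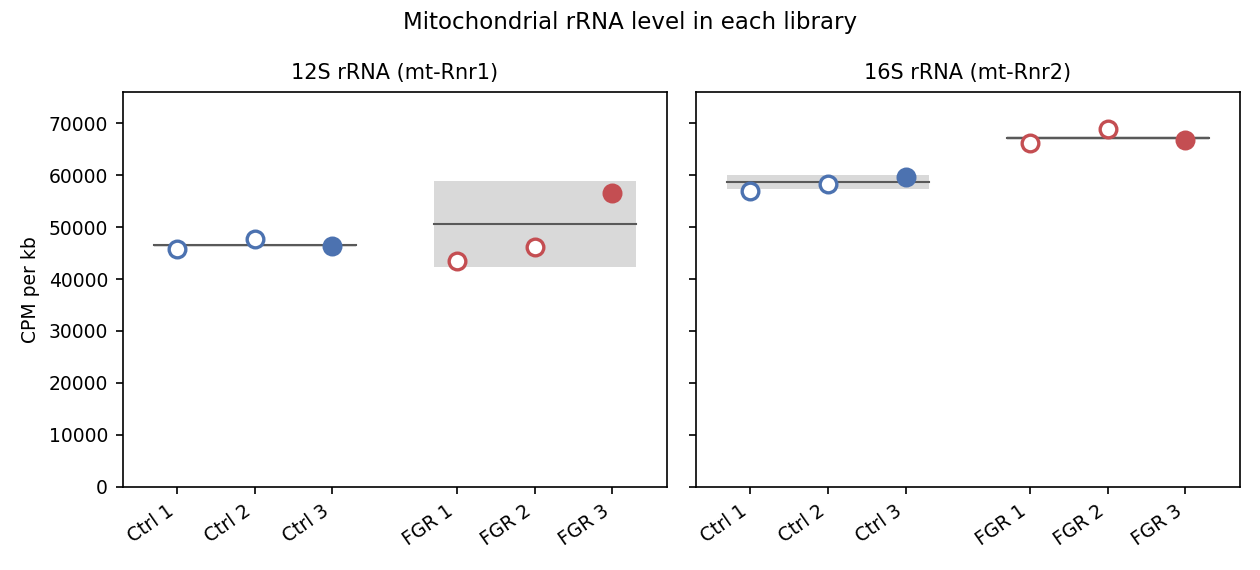
Level of the 12S (left) and 16S (right) ribosomal RNA in each library, in CPM per kb on an axis from 0. Open circles are the near copies (libraries 1 and 2), filled circles library 3, and lines with grey bands are the mean ± SD over 2 samples per group. The 16S level is 66111 to 68868 in FGR and 56981 to 59579 in Ctrl, while for the 12S, on these library totals, FGR library 3 stands apart at 56469.

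Together, the ribosomal RNAs took a larger share of the library in FGR. The share was 13.4%, 13.8% and 13.8% in Ctrl libraries 1, 2 and 3. It was 14.6%, 15.3% and 15.97% in FGR libraries 1, 2 and 3. Counting error is small beside these gaps: the 95% Wilson interval of the shallowest library, Ctrl 2, runs from 13.73% to 13.84%. Such intervals cover counting error only. The difference of 1.74 percentage points had an exact two-sided permutation p of 0.333 over 2 samples against 2, the smallest that design can give. Over 3 libraries against 3, with near copies as separate libraries, the exact p was 0.1, also the smallest possible. Adjusted over 9 measures of the mitochondrial transcripts, this p over libraries was 0.45. Both values over libraries count the near copies as independent, which the chi-square above speaks against. The difference had another make-up in each set of libraries. As shares of library totals, in libraries 1 and 2 FGR minus Ctrl was 1.55 points for the 16S share and -0.184 points for the 12S share, while in library 3 it was 1.15 points for the 16S and 0.973 points for the 12S. These values are descriptions of single samples, and no test within a set was possible.

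The ratio of 16S to 12S, each per kb, does not depend on the scaling between libraries. The large ribosomal RNA exceeded the small one in all 6 libraries. The ratio was 1.25, 1.22 and 1.29 in Ctrl libraries 1, 2 and 3. It was 1.52, 1.49 and 1.18 in FGR libraries 1, 2 and 3. The FGR near copies thus had the highest ratios and FGR library 3 the lowest, so Ctrl lay between them. The 95% counting interval of the ratio was 1.48 to 1.51 in FGR library 2, the shallower of that pair, and 1.180 to 1.187 in FGR library 3. The Ctrl library nearest to each had an interval of 1.283 to 1.292 (Ctrl 3) and 1.21 to 1.24 (Ctrl 2). The mean was 1.26 ± 0.037 in Ctrl and 1.35 ± 0.23 in FGR (SD, n = 2), with an exact two-sided permutation p of 1 over samples and 0.4 over libraries. On the log2 scale FGR differed from Ctrl by 0.29 in libraries 1 and 2 and by -0.12 in library 3. As for levels on library totals, FGR lay above Ctrl in both sets for 17.3% of tested features, the 16S RNA among them.

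**Figure D2:**
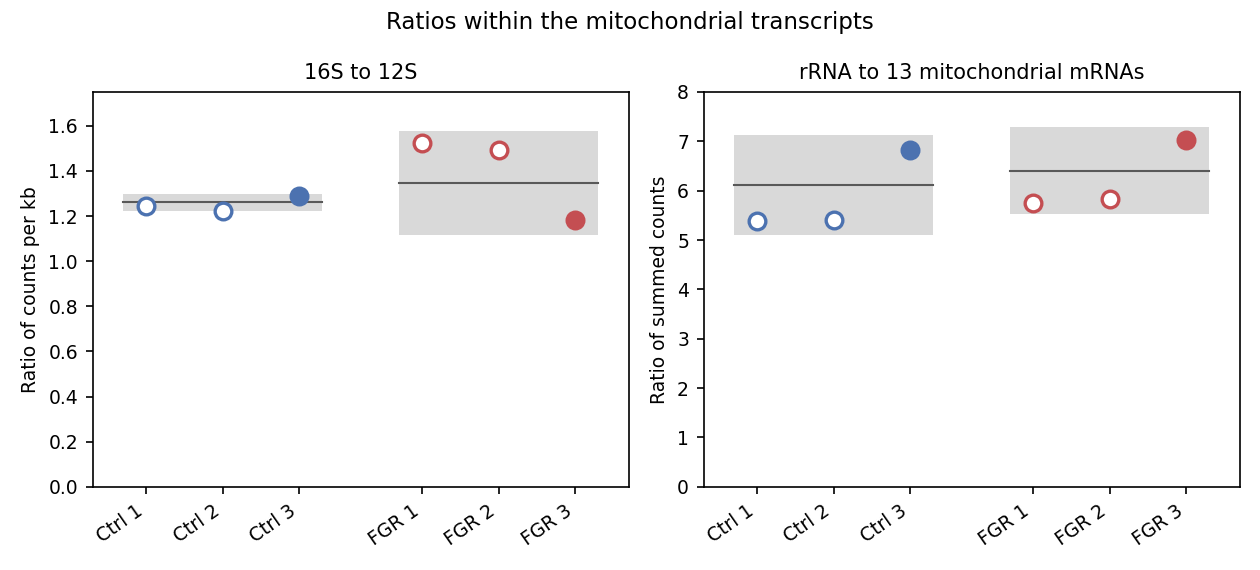
Ratio of 16S to 12S counts per kb (left) and of both ribosomal RNAs to the 13 mitochondrial mRNAs in summed counts (right) in each library, on axes from 0. Open circles are near copies, filled circles library 3, grey bands the mean ± SD over 2 samples, and the 95% counting intervals on the left are hidden by the circles. On the left FGR spans 1.18 to 1.52 and Ctrl 1.22 to 1.29; on the right library 3 of both groups lies above libraries 1 and 2.

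The ribosomal RNAs made up most of what the mitochondrial genome contributed. They held 84.3%, 84.3% and 86.9% of the counts of its 37 genes in Ctrl libraries 1, 2 and 3, and 85.1%, 85.3% and 87.2% in FGR. The remainder was almost all from the 13 mRNAs, which encode subunits of the respiratory chain and the ATP synthase. Per kb, the 16S RNA ranked first and the 12S RNA second in each library, and these ranks differ beyond the counting error. The next gene was mt-Co1 or mt-Cytb, subunits of cytochrome oxidase and of complex III, at 2997 to 4351 CPM per kb. The 16S RNA stood 13.8 to 19.9 times above the most abundant mRNA of the same library and the 12S RNA 10.6 to 16.8 times. The least abundant mRNA was mt-Nd3, a complex I subunit, in all 6 libraries, at 145 to 198 CPM per kb.

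**Figure D3:**
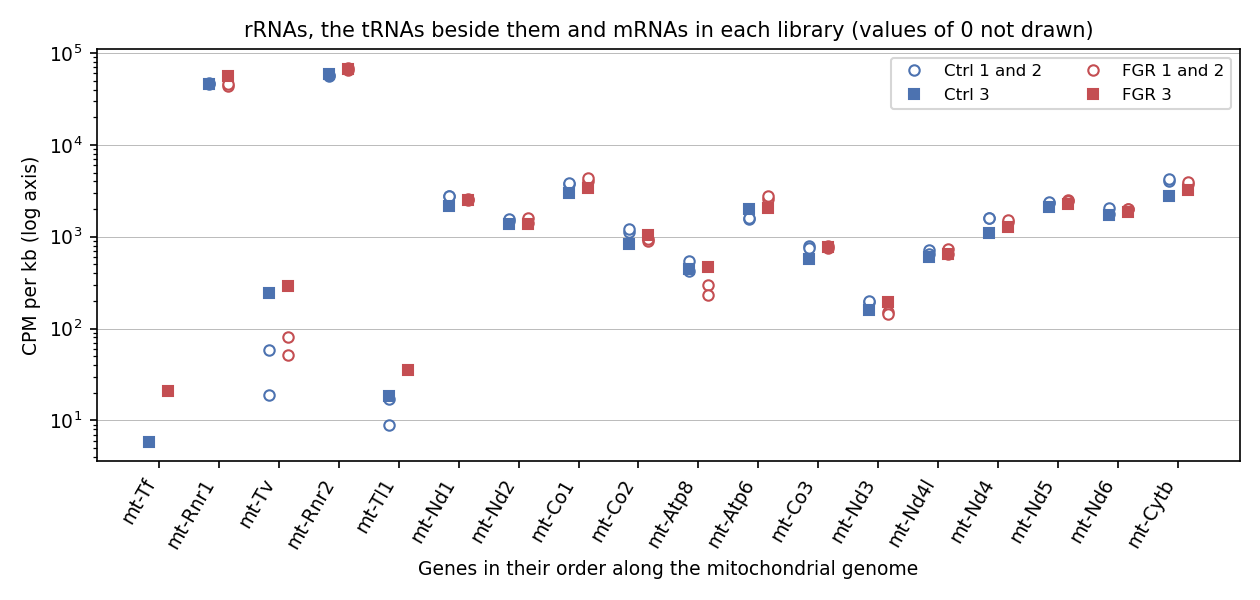
CPM per kb (log axis) of the ribosomal RNAs, the tRNAs beside them and the 13 mRNAs, in gene order along the mitochondrial genome. Circles are libraries 1 and 2, squares library 3, blue Ctrl and red FGR; values of 0 are not drawn. The ribosomal RNAs lie at 43433 to 68868, every mRNA at 4351 or less, and the tRNAs between and beside the ribosomal RNAs at 292 or less.

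In counts, the ribosomal RNAs outnumbered the 13 mRNAs by 5.39, 5.40 and 6.83 times in Ctrl libraries 1, 2 and 3. The corresponding ratios in FGR were 5.75, 5.82 and 7.03. Within each number FGR lay above Ctrl, but Ctrl library 3 lay above FGR libraries 1 and 2, so the groups overlapped. The means were 6.11 ± 1.01 in Ctrl and 6.41 ± 0.881 in FGR (SD, n = 2). The exact two-sided permutation p was 0.667 over samples. Over libraries, which counts near copies as independent, it was 0.5 (0.75 adjusted over 9 measures). The set of libraries moved this ratio more than the group did. Library 3 had 1.27 times the ratio of libraries 1 and 2 in Ctrl and 1.22 times in FGR, while FGR had 1.07 times the ratio of Ctrl in libraries 1 and 2 and 1.03 times in library 3. Without FGR library 3 the order of the group means turned, with a log2 ratio of FGR over Ctrl of -0.08. Without Ctrl library 3 that value was 0.25.

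Taken singly, the 16S and 12S RNAs differed in their relation to the mRNAs from set to set. The ratio of 16S to mRNA counts was 3.62 in Ctrl and 4.13 in FGR in libraries 1 and 2, and 4.65 and 4.66 in library 3. The ratio of 12S to mRNA counts was 1.77 in Ctrl and 1.65 in FGR in libraries 1 and 2, and 2.18 and 2.37 in library 3. Counted gene by gene, 16S over the mRNA was higher in FGR for 12 of 13 mRNAs in libraries 1 and 2 and for 7 of 13 in library 3. For 12S over the mRNA the counts were 6 and 10 of 13. The exception in libraries 1 and 2 was mt-Atp6, a subunit of the ATP synthase, whose own level differed by 0.76 on the log2 scale, and mt-Atp8, which overlaps it, differed by -0.88. In library 3 these were 0.05 and 0.06. Whether the sets differ in their response could not be tested, since each group has 1 sample per set.

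**Figure D4:**
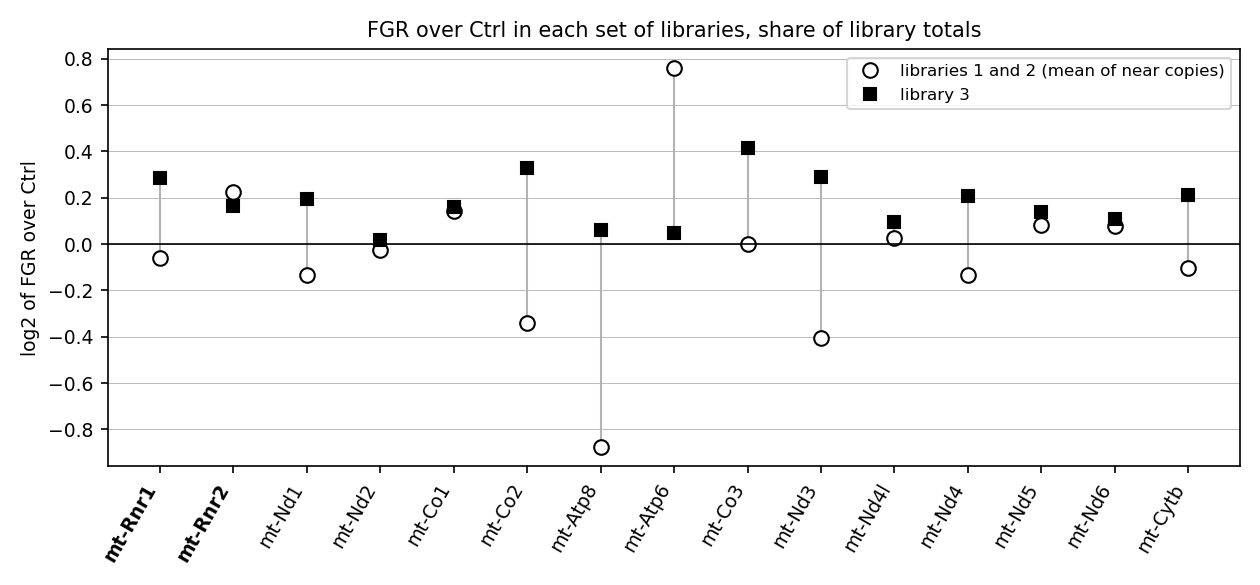
Log2 of FGR over Ctrl, on library totals, for the ribosomal RNAs (bold) and the 13 mRNAs in genome order. Open circles are libraries 1 and 2 (mean of the near copies), filled squares library 3, and the grey line joins both. The 16S RNA (mt-Rnr2) stands at 0.23 and 0.17, and the 12S RNA (mt-Rnr1) at -0.06 and 0.29; with TMM scaling, not drawn, the 12S values are 0.13 and 0.30.

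On library totals the mRNAs themselves were above Ctrl in 6 of 13 cases in libraries 1 and 2 (median log2 ratio -0.03) and in 13 of 13 in library 3 (0.16). With TMM scaling they were above Ctrl in 10 of 13 cases (0.17) and in 13 of 13 (0.18), so the direction of their median in libraries 1 and 2 turned with the scaling. In the edgeR fit, which uses TMM, 12 of the 13 had a fold change above 1 and none was called, with a median log2 fold change of 0.15. Over all tested features the median was -0.03 and 47.6% had a fold change above 1. The 16S value of 0.28 and the 12S value of 0.22 thus lay above the median of the mRNAs, and 2 mRNAs exceeded the 16S: mt-Atp6 at 0.47 (SE 0.30) and the cytochrome oxidase subunit mt-Co3 at 0.29 (SE 0.28). The first mRNA after the 16S gene, mt-Nd1 of complex I, had 0.13 (SE 0.27). It stood at 2771, 2789 and 2171 CPM per kb in Ctrl libraries 1, 2 and 3. In FGR it stood at 2571, 2499 and 2483, so the groups overlapped on library totals. With TMM scaling mt-Nd1 was at 1.04 times Ctrl in libraries 1 and 2 and 1.16 times in library 3. The summed 13 mRNAs overlapped on library totals, at 20274 to 25525 CPM in Ctrl and 22707 to 26273 in FGR. With TMM scaling their sums, like the 16S RNA, did not overlap, at 21170.5 to 22759 in Ctrl and 23953 to 26752 in FGR.

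The tRNA genes that border the ribosomal RNAs had few counts. Over all libraries mt-Tf, before the 12S gene, had 20 counts. mt-Tl1 had 48, and mt-Tv, between the ribosomal RNAs, had 437. The latter stood at 58.5, 18.7 and 244 CPM per kb in Ctrl libraries 1, 2 and 3. In FGR libraries 1, 2 and 3 it stood at 51.8, 81.3 and 292. Library 3 was thus high in both groups, and the groups overlapped. The step between the sets of libraries was smaller for the ribosomal RNAs: on library totals, from libraries 1 and 2 to library 3 the 16S RNA changed by 0.05 (Ctrl) and -0.01 (FGR) on the log2 scale, the 12S RNA by -0.01 and 0.33, and mt-Tv by 2.66 and 2.13. With TMM scaling these steps were 0.27 and 0.04 for mt-Rnr2, 0.22 and 0.39 for mt-Rnr1, and 2.89 and 2.19 for mt-Tv. Reads that overlap 2 genes can be dropped or shared in counting, depending on a setting that is not given. Of the 14 heavy-strand tRNAs 7 were tested and of the 8 light-strand tRNAs 4, all with a fold change above 1 and none called. Over all tested features 47.6% were above 1. The most abundant of each strand, mt-Tg and mt-Tp, named after their values were seen, differed by set. For mt-Tp, Ctrl had 109, 144 and 338 CPM and FGR 71.8, 81.9 and 412. For mt-Tg, Ctrl had 22.2, 14.2 and 47.0 CPM and FGR 10.4, 11.8 and 172. The mean of mt-Tv was higher in FGR in libraries 1 and 2 too, by 0.79 on the log2 scale.

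Nuclear genes needed to make the mitochondrial ribosome were read as labels of the table, since abundant genes such as C1qa had almost no counts under theirs. Of 42 genes for synthesis, cutting and modification of mitochondrial ribosomal RNA, 30 were tested, 13 above and 17 below 1 in fold, and none was called (median log2 fold change -0.14). The members with the smallest p were Mterf1a, a mouse gene for the termination factor named above, at -0.85 (SE 0.48), the RNA helicase Supv3l1 at 0.47 (SE 0.30), Tfam, which activates transcription of the mitochondrial genome, at 0.80 (SE 0.53), and the matrix protein C1qbp at -0.56 (SE 0.43). Mterf1a had 330 counts in all, at 28.3, 19.3 and 8.43 CPM in Ctrl libraries 1, 2 and 3 and 7.74, 10.7 and 7.48 in FGR. The mitochondrial RNA polymerase Polrmt, given for its role, had 29.6 ± 5.47 CPM in Ctrl and 33.1 ± 7.12 in FGR (SD, n = 2). The label Dhx30, an RNA helicase of mitochondrial ribosome assembly chosen here after its values were seen, held 154490 of the 173449 counts of this list. It stood at 10781, 11037 and 2615 CPM in Ctrl libraries 1, 2 and 3. In FGR it stood at 2773, 2894 and 5645, lower than Ctrl in libraries 1 and 2 and higher in library 3. With Dhx30 the sums of the list overlapped between the groups on both scales. Without Dhx30 they overlapped on library totals, at 566 to 669 CPM in Ctrl and 616 to 630 in FGR. With TMM scaling the sums without Dhx30 did not overlap, at 558 to 597 CPM in Ctrl and 630 to 650 in FGR. Of single features tested on that scale, 4.68% also had all 3 FGR libraries above all 3 Ctrl libraries.

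Labels for proteins of the small subunit, which holds the 12S RNA, were below 1 in fold for 19 of 25 tested genes (33 in the list), with a median log2 fold change of -0.11 and none called. Their summed level was 308 to 358 CPM in Ctrl and 278 to 305 CPM in FGR on library totals. These sums did not overlap, in a direction for which no share over all features is given here. With TMM scaling they did overlap, at 275 to 374 CPM in Ctrl and 283 to 322 in FGR. They also overlapped without Dap3, a small-subunit protein named here after its values were seen, which held 3774 of the 10028 counts: the sums on library totals were then 189 to 222 CPM in Ctrl and 172 to 195 in FGR. Labels for proteins of the large subunit, which holds the 16S RNA, were above 1 for 21 of 35 tested genes (50 in the list), with a median of 0.08 and none called. Their sum was 720 to 940 CPM in Ctrl and 772 to 814 in FGR. The small-subunit genes of smallest p, Mrps31 at -2.92 (SE 1.11) and Mrps10 at -1.30 (SE 0.91), had only 34 and 50 counts over all libraries. In the large subunit Mrpl24, with 41 counts, had -2.59 (SE 1.20), and Mrpl58, a peptidyl-tRNA hydrolase built into the ribosome, had 0.62 (SE 0.35) on 1217 counts.

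Other noncoding RNA labels were low or at 0. Of 14 labels for cytosolic ribosomal and other abundant noncoding RNAs, 2 had no ID in the table (Rn18s-rs5 and Rn45s), 6 IDs were at 0 in all libraries, and 4 were tested, all below 1 in fold and none called. Their sum was 147 to 159 CPM in Ctrl and 111 to 145 CPM in FGR on library totals, and 131 to 166 and 113 to 153 CPM, with overlap, with TMM scaling. Lars2, the mitochondrial leucine tRNA ligase, whose label was in that list, stood at 94.9, 79.2 and 82.4 CPM in Ctrl libraries 1, 2 and 3 and at 60.2, 81.3 and 69.5 in FGR, so the groups overlapped. In the edgeR fit Lars2 had a log2 fold change of -0.23 (SE 0.29, adjusted p 0.9998).

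By the pattern over the 6 libraries, the ribosomal RNAs were not each other's nearest neighbours. Among 1500 other features that averaged 100 CPM or more and had a proper symbol, likeness was measured as the root mean square distance of centred log2 CPM on library totals. The 16S RNA ranked 129 in likeness to the 12S RNA, and the 12S RNA ranked 282 in likeness to the 16S RNA, at a distance of 0.141. Among the labels nearest to the 16S RNA were Map3k11 (0.034), Wdr18 (0.045), Gipc3 (0.049) and Bach2 (0.050). Map3k11 stood at 317, 313 and 344 CPM in Ctrl and 363, 374 and 375 in FGR. Those nearest to the 12S RNA were Stx5a (0.042), Fnbp1 (0.049), Prpf8 (0.061), Mboat7 (0.061) and Aamp (0.066). Stx5a stood at 201, 212 and 212 CPM in Ctrl and 202, 209 and 240 in FGR, with FGR library 3 highest as for the 12S RNA.

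Reads of nuclear copies of mitochondrial DNA can be assigned to or away from these genes. Among the annotated transcripts, 0 held a copy of either ribosomal RNA of at least 100 bases at 90% identity or more. The nearest, named after the search, were Gm20594, with 88.4% identity over 439 bases of the 16S RNA and 8 counts in all, and a transcript with a retained intron of Cep295, with 78.7% over 661 bases and 141 counts. Copies outside annotated transcripts were not analysed here.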

How the data were processed

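Per the labels, RNA of 3000 microglia per library was made into libraries with a SMARTer Stranded Total RNA-Seq v2 kit, a random-primed total RNA kit. Kits of this type can cleave ribosomal cDNA with probes. Whether that was done, and for which RNAs, is not given in the sources used here. A level or ratio is therefore that left in the library. The authors deposited raw counts per gene ID, not normalized. The submitters' processing notes name HTSeq 2.0.3, Bowtie2 2.4.5, Trim Galore 0.6.5, DESeq2 1.32.0, SAMtools 1.3.1 and mm10; the role of each, the annotation and the strand setting are not given. Symbols matched 53620 of 54590 IDs. Gene lengths, positions and sequences are from GENCODE M21 on GRCm38, the same assembly as mm10.

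Counts of libraries 1 and 2 of a group were summed for the fit, and their values averaged for levels and ratios. FGR was compared with Ctrl with edgeR 4.0.16 in R 4.3.3 (quasi-likelihood, TMM, filterByExpr, robust, bias-adjusted deviances, no block), with Benjamini-Hochberg adjustment over all tested features and a threshold of 0.05; the SE is the log2 fold change over the square root of F. The script was tested on simulated data. Fold changes above and below 1 in lists are signs of the fit. For ratios and shares an exact permutation test, two-sided, was used. Other tools were limma 3.58.1, DESeq2 1.42.0, BLAST 2.17.0, matplotlib 3.10.9, scipy 1.17.1, pandas 2.3.3, numpy 2.4.6 and Python 3.11.15. Between 62.7% and 69.0% of features with 2 to 20 counts had an even count, so counts are not independent molecules and counting intervals are too narrow.

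The members, lists, alternatives and naming rule were chosen with earlier results of these data known. Named were the members, the mitochondrial mRNAs and bordering tRNAs a ratio turns on, up to 4 list members with the smallest p, and the 5 labels most alike in pattern, of which 1 is not reported here; other names are marked.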

Additional observations from a re-analysis of the deposited data

How the results depend on the processing

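With the set of libraries as a replicate block on the summed near copies, the log2 fold changes were 0.21 (SE 0.40) for mt-Rnr1 and 0.29 (SE 0.44) for mt-Rnr2; with the replicate number as a replicate block on 6 libraries they were 0.12 and 0.28, and each of these block fits called 1 feature of the table (Gm36947 and Nprl3, named after their values were seen), in place of 0; the block changed no other call. With the block, 1049 (summed) and 1360 (6 libraries) features had an unadjusted p under 0.05, against 327 and 602 without it. The libraries share only a number: deviations from the group mean correlated at 0.153, 0.120 and 0.414 between libraries of number 1, 2 and 3 over the 16075 features passing the filter on 6 libraries, but at 0.118, 0.055 and 0.315 over the 24149 features tested, and near copies leave 2 pairs. Both members kept their sign and stayed uncalled under the 9 other settings of scaling, filter, tool and near copies, at 0.11 to 0.26 for mt-Rnr1 and 0.19 to 0.32 for mt-Rnr2. The lowest values came with library totals, where the median of all features was -0.11 against -0.03 with TMM. With each library left out in turn mt-Rnr1 ranged from 0.01 to 0.38 and mt-Rnr2 from 0.26 to 0.48, with 0 features called each time. As the log2 ratio of FGR over Ctrl, the ribosomal RNA share was 0.17 and ranged from 0.12 to 0.19 with a library left out; of the mitochondrial counts it was 0.01. The 16S to 12S ratio, at 0.09, ranged from 0.09 to 0.26 (highest without FGR library 3), and reversed to -0.12 in library 3 alone, a setting chosen after seeing the data. The ribosomal RNA to mRNA ratio, at 0.07, ranged from -0.079 (reversed, without FGR library 3) to 0.25 (without Ctrl library 3), and from 0.06 to 0.19 with other sets of mRNAs, per kb, within the sets or with near copies separate. Few counts, 20 to 437 in all, limit what can be read of the bordering tRNAs.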
